A study of Mus musculus with 8 samples.

Results

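Cells cultured from mouse embryonic stem (ES) cells under a Hedgehog agonist, and sorted as negative for a Rax reporter, were set against the embryonic brain region that expresses Rax, the diencephalon with hypothalamus of the mouse embryo. The comparison rested on 2 of the 8 arrays of the series, 1 for each group, and the members were taken from the sample labels and not from any measured value. The cultured group, called SAG RAX-negative here, came from K/l-EB5, a male ES cell line of 129/Ola background with a green fluorescent protein (GFP) reporter at Rax. These cells were grown without serum, first as floating aggregates and then on laminin, in a medium whose B27 supplement lacked vitamin A. The Wnt inhibitor IWR-1-endo (Wi) was given at 5 µM, and SAG, an agonist of the Hedgehog pathway, was given at 100 nM starting 12 h after it; whether the day 3 named in the label refers to the inhibitor or to SAG is ambiguous. At 10 days in vitro the cells were detached with trypsin, and those without Rax::GFP fluorescence were sorted. The diencephalon/hypothalamus group was dissected from 3 embryos of the Sv129s6 strain, of mixed sex, at embryonic day 12.5 (E12.5), with no agent and no sort named. Each group was 1 labelled sample, a pool of the RNA of 3 experiments, so there was no replicate and no p-value is given. Line, strain, sex, culture, sorting and tissue origin all differed between the groups and cannot be told apart. The remaining arrays gave levels for context. SAG RAX-positive cells came from the same SAG cultures. Activin RAX-negative and RAX-positive cells were K/l-EB5 cells given the inhibitor and activin at 10 ng/ml in place of SAG. The Wi control was the ES line E14Tg2a given the inhibitor alone. All cultures were taken at 10 days in vitro, and cortex and eye were dissected at E12.5.

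The hypothalamus forms from the ventral diencephalon under Hedgehog signals from the tissue below it. Rax encodes a homeodomain factor of eye field cells and hypothalamic progenitors and is turned down as many of these cells become neurons. Hypothalamic neurons are sorted into classes by transcription factors and many release peptides, while the embryonic brain itself also holds vessels, blood, macrophages and the meninges around it.

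Levels are given as the log2 of the background-corrected Agilent signal over the 75th percentile of the array, so a level of 0 is the 75th percentile and negative levels lie below it. Each gene is represented by 1 probe, the one with the highest mean level over the 8 arrays, and was called detected where the array with the higher level was well above background. It was called higher or lower in SAG RAX-negative cells where the log2 difference, SAG RAX-negative minus diencephalon/hypothalamus, was at least 1. This rule concerns size alone and involves no test. The error of a difference, from the error model of the scanner software, had a median of 0.20 on the log2 scale, or 1.15-fold, over the 23329 genes that both arrays measured well above background. Variation between cultures or embryos is not part of that error. Where the dimmer array was not well above background, the fold was taken against that array's lowest signal well above background and is written "at least".

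By this rule 3579 of 26594 detected genes (13.5%) were higher in SAG RAX-negative cells and 2659 (10.0%) were lower. Of these 23329 genes, 82.9% lay within a log2 difference of 1. The median difference of all detected genes was 0.13. Of the genes called lower, 1207 were not well above background in SAG RAX-negative cells, whose array had the higher detection floor of the 2. With dim spots set to the floor, an alternative added after the data were seen, 1885 genes were lower and 3579 higher. In that setting 65.5% of the called genes were higher. Only the lower calls could drop there, because the floor of the SAG RAX-negative array (-5.62) lies more than 1 above that of the tissue array (-7.47). The unchanged count of higher genes is therefore no check of those calls. The direction of the calls depended on the scaling: 57.4% of the called genes were higher as reported here, 49.1% after median scaling, 43.5% after quantile normalization, 44.0% in the authors' deposited log2 table and 84.7% with a normexp background correction, with medians of all detected genes of -0.03, -0.02, -0.02 and 0.28 under these alternatives. Counts of gene lists below are to be read against the 13.5% higher and 10.0% lower of all detected genes, and their medians against 0.13. Of 52 named genes with several detected probes 24 had probes that differed in call, and these are named with the gene or in the closing section. Spots well above background made up 66.4% of the SAG RAX-negative array and 73.0% of the diencephalon/hypothalamus array, within the 59.5% to 79.3% of the 8 arrays, and the lowest level well above background was -5.62 and -7.47 in that order of groups. Both arrays lay on 1 slide, the first in row 2 and column 2 and the second in row 3 and column 1, so slide position and group cannot be told apart. The Wi control array lay on another slide, and all remaining arrays lay on the same slide as these. Across 31039 genes, which are not independent replicates, Spearman's rho of the SAG RAX-negative levels was 0.947 with diencephalon/hypothalamus, 0.927 with cortex, 0.917 with eye and 0.962 with the RAX-positive cells of the same SAG cultures. It was 0.952 with activin RAX-positive cells, 0.935 with activin RAX-negative cells and 0.937 with the Wi control. The diencephalon/hypothalamus levels had a rho of 0.965 with cortex and 0.960 with eye, above that with SAG RAX-negative cells.

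**Figure D1:**
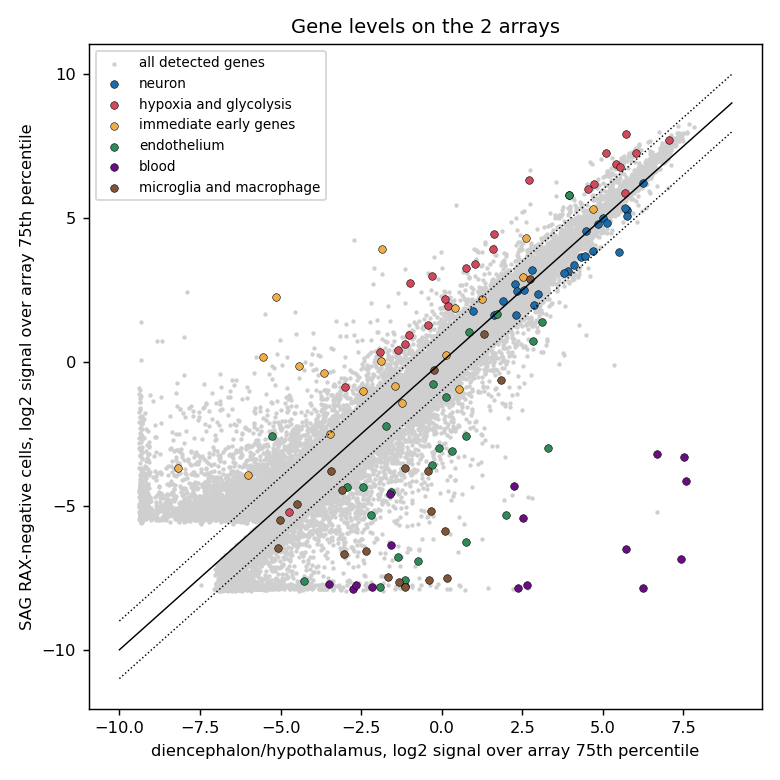
Level of each detected gene on the SAG RAX-negative array (y axis) against the diencephalon/hypothalamus array (x axis), both as log2 signal over the array's 75th percentile. The solid line marks equal levels and the dotted lines a log2 difference of 1 either way; genes of the neuron list lie along the diagonal, 23 of 26 genes of the hypoxia and glycolysis list lie above the upper dotted line, and all 16 detected blood genes lie below the lower one.

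Rax itself did not separate the groups. Its level was 3.08 in SAG RAX-negative cells and 3.14 in diencephalon/hypothalamus, a difference of -0.06 with an error of 0.20, while the RAX-positive cells sorted from the same cultures stood at 5.49. The sorted RAX-negative cells were thus below the RAX-positive cells and at the level of the dissected tissue. Rax was at -4.07 in the Wi control and -3.32 in cortex, far below the SAG RAX-negative cells. The name RAX-negative thus refers to the sort by GFP fluorescence and not to an absence of Rax RNA. Hprt and Xist did separate SAG RAX-negative cells from diencephalon/hypothalamus. Hprt, a purine salvage enzyme that is inactive in the ES line E14Tg2A, had a level of -1.42 in SAG RAX-negative cells and 2.12 in diencephalon/hypothalamus, 11.6-fold lower in the cultured cells. All 5 ES-derived arrays had Hprt between -1.54 and -1.07, and the cortex and eye arrays were at 3.62 and 3.00, so the tissue and culture arrays did not overlap. Xist, the RNA that silences an X chromosome in females, was at -7.71 and not well above background in SAG RAX-negative cells, against -0.11 in diencephalon/hypothalamus (at least 45.6-fold lower); the labels give a male line and embryos of mixed sex. The Hprt probe is shown because its cultures and tissues did not overlap; it lies at chrX:50374757-50374816 on the + strand of mm9, and the part of the gene it covers was not annotated here.
Hprt probe: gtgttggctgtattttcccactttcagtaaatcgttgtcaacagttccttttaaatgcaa

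The neuronal genes were at similar levels in the cultured cells and in the tissue. Of 25 neuron markers, each with signal well above background in both groups, 0 were higher, 1 was lower and 24 lay within a log2 difference of 1, with a median of -0.36 against 0.13 for all detected genes. Tubb3, a tubulin of early neurons, was at 5.28 in SAG RAX-negative cells and 5.73 in diencephalon/hypothalamus. Gap43, a protein of growing axons, was at 4.99 and 5.00 in the same order of groups, and Elavl3, a neuronal RNA-binding protein, at 4.55 and 4.49. Nsg2, a protein of neuronal endosomes, was the 1 gene called lower (3.17-fold), and its probes disagreed, with differences from -2.83 to 1.09. In the RAX-positive cells of the same cultures, set against the same tissue array, 18 of 25 neuron markers were lower and 0 higher, with a median of -1.71, where the background over all genes was 13.2% lower and 19.3% higher. Stmn2, which regulates microtubules in growing axons, shows this side by side, with a level of 5.33 in SAG RAX-negative cells, 3.32 in SAG RAX-positive cells and 5.70 in diencephalon/hypothalamus. The neuron list kept a negative median under every scaling tried, from -0.29 to -0.71, and at most 5 of its genes were lower under any of them.

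Progenitor genes were also near the tissue level. Of 19 genes of neural progenitors and radial glia, 17 lay within a log2 difference of 1 and the median was 0.09. Sox2, which maintains neural progenitors, was at 3.82 in SAG RAX-negative cells and 3.16 in diencephalon/hypothalamus, and Hes5, a target of Notch, at 6.05 and 5.76. Pax6 was the 1 gene of this list called lower, with a level of -5.34 in SAG RAX-negative cells against -0.43 in diencephalon/hypothalamus (30.1-fold lower), and it stood at 1.76 in cortex and 2.35 in eye. The size depends on the probe, as its other probe differed by -1.91, and -5.34 lies near that array's lowest level well above background (-5.62). Pax6 patterns the dorsal forebrain and the eye and is repressed by Hedgehog signalling in the ventral neural tube. Notch1, the receptor, was higher on the probe used (4.33-fold), and its other probe differed by 0.27. Of 25 cell cycle genes 24 lay within a log2 difference of 1, with a median of 0.46, and Mki67, a marker of dividing cells, was at 5.29 in SAG RAX-negative cells and 4.86 in diencephalon/hypothalamus. Ccne2, the 1 cell cycle gene called lower, was not well above background in the cultured cells and its fold could not be bounded above 1. Of 21 proneural and commitment genes 1 was higher and 6 were lower. Neurog2, which drives glutamatergic neurogenesis, was 3.65-fold lower, Neurod2 11.1-fold lower and Atoh7, of retinal ganglion cells, 5.96-fold lower. Dll3, a Notch ligand, was the 1 member called higher (2.10-fold), and this list's median of -0.37 lay below that of all genes.

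Genes that pattern the hypothalamus, mainly transcription factors, were all detected, and 15 of 25 lay within a log2 difference of 1 of the tissue. Another 3 (12.0%) were higher and 7 (28.0%) were lower, against 13.5% and 10.0% of all detected genes, with a median of -0.04 whose sign turned with normexp (0.05). Dbx1, of hypothalamic and ventral progenitors, was at 5.38 in SAG RAX-negative cells and 5.43 in diencephalon/hypothalamus. Foxd1, which patterns the prethalamus and hypothalamus, was at 1.79 and 1.69 in that order of groups, and Hmx3, of the ventral hypothalamus, at 2.35 and 1.98. The same genes were low in cortex, where Dbx1 stood at -2.09 and Hmx3 at -6.85.

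The 3 patterning genes that were higher were Nkx2-1, Foxa2 and Foxb2. Nkx2-1, which specifies the ventral hypothalamus and basal telencephalon, was at 4.30 in SAG RAX-negative cells and 3.09 in diencephalon/hypothalamus, 2.31-fold higher, and it was not well above background in the Wi control or the eye. Foxa2, of the floor plate and ventral midline, was at 3.24 in SAG RAX-negative cells and -1.12 in diencephalon/hypothalamus, 20.7-fold higher. It was also high in activin RAX-negative cells (3.79) and lower in SAG RAX-positive cells (-1.12). Foxb2 was 3.58-fold higher. Foxa2 is also a gene of endoderm, and of that list of mesoderm and endoderm genes 3 of 12 detected genes were higher and 4 lower, with Sox17 and Afp not well above background in SAG RAX-negative cells; the part of such cells in the Foxa2 level was not tested. Both Foxa2 probes gave near-identical differences, 4.37 and 4.50, and are shown with the Lhx8 probe because these are the 2 ventral transcription factors with the largest differences. The Foxa2 probes lie at chr2:147868669-147868728 and chr2:147868614-147868673 and the Lhx8 probe at chr3:153969377-153969436, all on the - strand of mm9.
Foxa2 probe, difference 4.37: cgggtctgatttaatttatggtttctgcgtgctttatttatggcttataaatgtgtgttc
Foxa2 probe, difference 4.50: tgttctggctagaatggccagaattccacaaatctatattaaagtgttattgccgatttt
Lhx8 probe, difference 4.86: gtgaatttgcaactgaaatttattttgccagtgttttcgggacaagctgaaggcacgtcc

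The 7 patterning genes that were lower included genes of the tuberal hypothalamus. Six6, of the eye field and ventral hypothalamus, was at -1.12 in SAG RAX-negative cells and 1.76 in diencephalon/hypothalamus (7.38-fold lower), and stood at 1.19 in SAG RAX-positive cells. Tbx3 and Fgf10, of the tuberal hypothalamus and infundibulum, were 4.56-fold and 4.72-fold lower, with Tbx3 at 0.46 in SAG RAX-negative cells, 4.21 in SAG RAX-positive cells and 2.65 in diencephalon/hypothalamus. Fgf10 was at -2.43, 0.78 and -0.20 in that order of groups. These 3 genes were lower in the RAX-negative than in the RAX-positive cells of the same cultures. Barhl1, of the mammillary and subthalamic region, was 6.62-fold lower. Prdm12 and Nkx2-2 were lower by 2.23-fold and 2.10-fold, though the median over the Prdm12 probes gave a difference of 0.18.

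**Figure D2:**
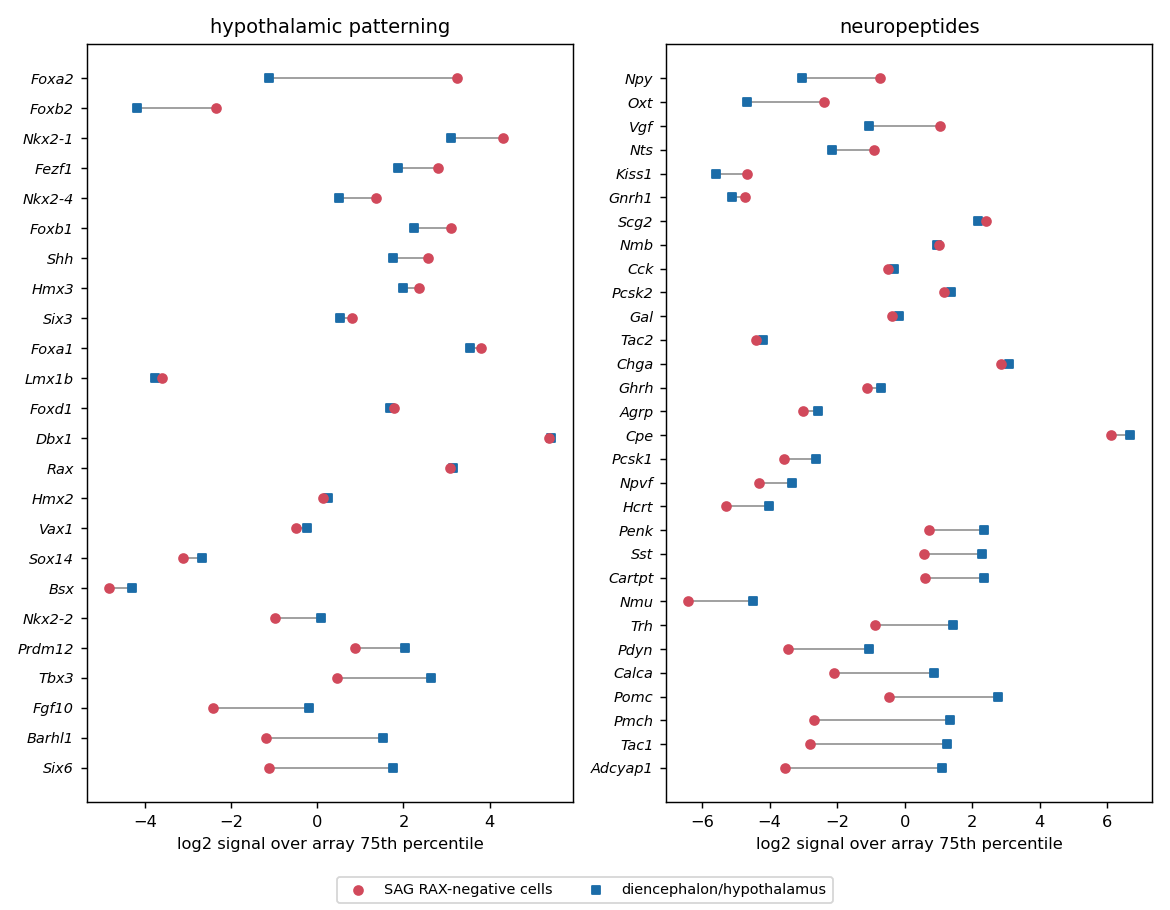
Levels of detected genes of the hypothalamic patterning list (left) and the neuropeptide list (right), as log2 signal over the array's 75th percentile, with SAG RAX-negative cells as circles and diencephalon/hypothalamus as squares. Each row is 1 gene and levels are comparable within a row only; 15 patterning genes have lines shorter than 1, while 13 of 30 peptide genes have the circle at least 1 to the left.

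Factors of hypothalamic neuron classes were mixed. Of 24 detected genes 2 were higher and 6 lower, with a median of -0.41. Lhx8, of ventral forebrain cholinergic and other neurons, had the largest difference of this list, at 2.71 in SAG RAX-negative cells and -2.15 in diencephalon/hypothalamus, 29.0-fold higher. It was between -6.90 and -1.53 on the other 6 arrays. Meis2 and Isl1, which mark ventral forebrain and arcuate neurons, were lower, by 7.14-fold and 2.15-fold. Lhx1 and Lhx9, LIM factors of the posterior hypothalamus, were lower by 2.81-fold and 2.12-fold. Nr5a1, of the ventromedial nucleus, was at 0.70 in SAG RAX-negative cells and 0.90 in diencephalon/hypothalamus. Sim1, of the paraventricular nucleus, was at -0.58 and -0.03 in that order of groups, and -6.27 in SAG RAX-positive cells. Otp, its partner, was at -3.75 and -2.86 in SAG RAX-negative cells and the tissue. Pgr, the progesterone receptor, was not well above background in the cultured cells (at least 1.45-fold lower).

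Peptide genes were lower more often than higher. Of 33 measured peptide and peptide-processing genes 30 were detected, 4 (13.3%) were higher and 13 (43.3%) were lower, against 13.5% and 10.0% of all detected genes, with a median of -0.52. Pmch, which encodes melanin-concentrating hormone of the lateral hypothalamus, was at -2.69 in SAG RAX-negative cells and 1.33 in diencephalon/hypothalamus, 16.3-fold lower, and between -6.16 and -4.11 on the other 6 arrays. Adcyap1 was 25.4-fold lower, at -3.56 in SAG RAX-negative cells against 1.11 in diencephalon/hypothalamus. Tac1, the substance P precursor, was 16.5-fold lower. Pomc, of arcuate and pituitary cells, was at -0.46 in SAG RAX-negative cells and 2.77 in diencephalon/hypothalamus, 9.40-fold lower. Cartpt, Sst and Penk were lower by 3.35-fold, 3.27-fold and 3.09-fold, and remained above their levels in SAG RAX-positive cells, where they stood at -3.81, -3.91 and -3.35 against 0.59, 0.58 and 0.73 in SAG RAX-negative cells. Calca and Hcrt were lower on the probe used, but another probe of each was higher by more than 1, and the median over the Hcrt probes gave 0.53. The 4 higher genes were Npy (4.91-fold), Oxt (4.80-fold), Vgf (4.23-fold) and Nts (2.36-fold). Oxt, the oxytocin precursor, was at -2.39 in SAG RAX-negative cells and between -4.90 and -4.22 on all other arrays, diencephalon/hypothalamus included (-4.66). Agrp, Ghrh and Gal differed from the tissue by -0.45, -0.41 and -0.20. In SAG RAX-positive cells 22 of 30 detected peptide genes were lower than in the same tissue array and 0 higher.

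The main glutamate transporter gene was lower and the GABA genes were near the tissue level. Slc17a6, the glutamate transporter of diencephalic neurons, was at 0.51 in SAG RAX-negative cells and 2.52 in diencephalon/hypothalamus, 4.04-fold lower. Slc32a1, the vesicular transporter of GABA and glycine, was at 4.49 and 4.03 in that order of groups. The GABA-synthesizing enzymes followed Slc32a1, with Gad1 at 2.14 in SAG RAX-negative cells and 1.30 in diencephalon/hypothalamus and Gad2 at 2.44 and 2.27. Th, the rate-limiting enzyme of dopamine synthesis, was at 2.42 and 1.78. Over 19 detected genes of this list 4 were higher and 5 lower: Slc6a5, the glycine transporter (at least 28.1-fold), Dbh, of noradrenaline synthesis (at least 12.6-fold), Tph2, of serotonin synthesis (at least 11.9-fold) and Slc6a4, the serotonin transporter (4.67-fold) were higher, at levels from -3.90 to -2.65 in SAG RAX-negative cells, and 3 of these 4 were not well above background in the tissue. Slc5a7, the choline transporter, was 6.65-fold lower, though another of its probes was higher. Hdc, of histamine synthesis, was 3.27-fold lower.

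Synapse genes were near the tissue level, while some receptors and channels were lower. Of 27 synapse and vesicle genes 21 lay within a log2 difference of 1, 1 was higher and 5 lower, a balance that turned to 3 higher and 0 lower with normexp. Dlg2, a synaptic scaffold, was 10.5-fold lower, though its other probe differed by -1.15, and Unc13a, of vesicle priming, was 3.63-fold higher. Of 17 detected ion channel genes 0 were higher and 7 lower, among them the sodium channels Scn2a (2.59-fold) and Scn3a (2.27-fold). The lower ones were 4 of 14 where both arrays had to be well above background, 3 of 14 with normexp and 4 of 17 over the median of probes. Of 29 detected receptor genes 4 (13.8%) were higher and 6 (20.7%) lower. The lower ones included the GABA receptor subunit Gabrb1 (12.9-fold, though another of its probes differed by -0.23) and the glutamate receptor subunit Gria1 (9.26-fold), and the higher ones Gabrr3 (18.8-fold) and the dopamine receptor Drd1 (at least 17.8-fold). Drd1 was not well above background in diencephalon/hypothalamus. Of 29 detected axon guidance genes 3 (10.3%) were higher and 3 lower, shares near or below those of all detected genes (13.5% and 10.0%). Slit1, a midline repellent, was at 3.57 in SAG RAX-negative cells and 1.05 in diencephalon/hypothalamus (5.76-fold higher), and Ntn1, a floor-plate attractant, was 2.16-fold higher.

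Gria4, a glutamate receptor subunit, had the largest difference of the receptor list and rests on 1 of its 2 probes. That probe was at -0.09 in SAG RAX-negative cells and 5.35 in diencephalon/hypothalamus, 43.6-fold lower, and between -2.20 and 0.13 on the other 6 arrays. The other probe was at -1.58 in SAG RAX-negative cells and -0.96 in diencephalon/hypothalamus, a difference of -0.62. The 60-base probes, which are not near one another on the chromosome, are shown so that both can be followed; they lie on the - strand of mm9 at chr9:4417896-4417955 and chr9:4502385-4502444.
Gria4 probe, difference -5.45: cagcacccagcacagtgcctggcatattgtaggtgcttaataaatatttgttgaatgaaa
Gria4 probe, difference -0.62: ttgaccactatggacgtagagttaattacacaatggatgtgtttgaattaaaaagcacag

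Genes of neighbouring brain regions were partly lower, among them genes of the thalamus, the roof plate and the eye. Of 18 genes of prethalamus and ventral forebrain 3 (16.7%) were higher and 5 (27.8%) lower, with a median of 0.00. Dlx2, of GABAergic progenitors, was at 4.47 in SAG RAX-negative cells and 3.43 in diencephalon/hypothalamus (2.07-fold higher), and Dlx1 at 2.87 and 2.88 on the probe used, while its other probe differed by 2.52. Of 28 detected genes of thalamus, habenula and pretectum 2 were higher and 10 lower. Olig3, of thalamic progenitors, was 8.97-fold lower, Irx3 and Irx5, which are expressed caudal to the boundary between prethalamus and thalamus, were 5.35-fold and 6.44-fold lower, and Pax7, of the pretectum and midbrain, was at least 8.40-fold lower. Gata3 (5.81-fold) and Pou4f1 (3.94-fold), of tectal or habenular neurons, were higher. Telencephalon genes were mostly near the tissue level, with 13 of 18 detected genes within a log2 difference of 1. Another 3 (16.7%) were higher and 2 (11.1%) lower, shares near those of all detected genes. The cortical neuron gene Neurod6 was not well above background in SAG RAX-negative cells. The list of midbrain, hindbrain and spinal cord had 8 higher and 5 lower among 16 detected of 27 genes. Phox2a, of hindbrain visceral neurons, was at -2.89 in SAG RAX-negative cells and -5.09 in diencephalon/hypothalamus (4.61-fold higher), and Hoxa3 was not well above background in SAG RAX-negative cells and at least 5.71-fold lower. Of 20 detected eye field and retina genes 1 was higher and 9 were lower. Of 20 detected choroid plexus and roof plate genes 0 were higher and 11 lower, among them Lmx1a, of the roof plate and mammillary region (6.69-fold), and Msx1 (10.6-fold).

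Genes of the Hedgehog pathway were mixed, with the feedback targets Ptch1 and Hhip near the tissue level. Gli1, the transcriptional readout of the pathway, was at 2.40 in SAG RAX-negative cells, 3.79 in SAG RAX-positive cells and 2.07 in diencephalon/hypothalamus on the probe used, and its other probe differed by 2.78, so its call depends on the probe. Ptch1, the receptor and target, was at 0.38, 1.77 and -0.03 in that order of groups, and Hhip, a target that binds the ligand, at 0.10, 2.65 and 0.54. Shh, the ligand, was at 2.56 in SAG RAX-negative cells and 1.75 in diencephalon/hypothalamus. Over 21 genes 2 were higher, Foxa2 and Nkx6-1 (5.66-fold), both ventral target genes, and 7 (33.3%) were lower, against 10.0% of all detected genes. The lower genes included the coreceptors Gas1 (5.44-fold, though the median over its 3 probes gave a difference of 0.16), Cdon (2.84-fold) and Boc (2.05-fold), which are repressed by the pathway in the neural tube, and the activator Gli2. Gli2 was at -6.26 and not well above background in SAG RAX-negative cells, at -7.46 in SAG RAX-positive cells and at -1.64 in diencephalon/hypothalamus (at least 15.8-fold lower).

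Wnt and retinoic acid genes were lower more often than higher. Of 20 genes of Wnt feedback and antagonism 0 were higher and 10 lower, with a median of -0.89. Axin2, a general feedback target, was at -2.25 in SAG RAX-negative cells and -1.02 in diencephalon/hypothalamus (2.33-fold lower), Sp5 was 11.2-fold lower, Lgr5 8.68-fold lower and Nkd1 2.71-fold lower. The cultured cells had been given a Wnt inhibitor and the embryos had not, and its part in these differences was not tested. The summed signal of this feedback list was 18.3 in SAG RAX-negative cells and 29.4 in diencephalon/hypothalamus. It was 23.8 to 43.4 in the other cultures, all given the inhibitor, and 43.1 and 145 in cortex and eye. Of 16 detected Wnt ligands 2 were higher and 8 lower, with Wnt8b, of the dorsal and hypothalamic forebrain, 5.01-fold lower and Wnt5b 2.79-fold higher. Of 14 detected retinoic acid genes 3 were higher and 7 lower. Rarb, a receptor and direct target, was at -3.64 in SAG RAX-negative cells and 0.05 in diencephalon/hypothalamus (12.9-fold lower), and Dhrs3, a feedback target, was 5.13-fold lower, while Crabp2 and Rbp4, which bind retinoids, were 2.75-fold and 3.33-fold higher. Of 11 detected activin and nodal targets 1 was higher and 3 lower, with Fst at -0.46 in SAG RAX-negative cells and 1.64 in diencephalon/hypothalamus. With normexp 1 of 19 Wnt feedback genes was higher and 7 lower, 3 of 15 Wnt ligands were higher and 3 lower, and 3 of 13 retinoic acid genes were higher and 5 lower.

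Genes of blood cells were lower. All 16 blood genes were called lower (12 of 16 with normexp), 10 of them not well above background in SAG RAX-negative cells, and the summed signal of the list, relative to the 75th percentile, was 0.447 in SAG RAX-negative cells against 799 in diencephalon/hypothalamus. Over the arrays it was 0.357 to 0.905 in the 5 cultures and 799 to 1308 in the 3 tissues. Hbb-y, an embryonic globin, was at -6.84 and not well above background in SAG RAX-negative cells and at 7.43 in diencephalon/hypothalamus, at least 8503-fold lower. Copies of the alpha globins are nearly identical, so Hba-a1 and Hba-a2 (3357-fold and 1795-fold lower) cannot be read apart. In bulk samples fewer cells of a type and less RNA per cell cannot be told apart.

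Vessels and macrophages followed. Of 26 detected endothelial genes 20 were lower and 2 higher, with a median of -3.03. Cldn5, of endothelial tight junctions, was at -5.32 in SAG RAX-negative cells and 1.99 in diencephalon/hypothalamus, 158-fold lower, Cd34 was 77.1-fold lower and Cdh5, which joins endothelial cells, was 2.52-fold lower. Pecam1 differed by -0.48. The 2 higher genes were Slc2a1, a glucose transporter that also responds to hypoxia (3.60-fold), and Flt4 (6.44-fold). Of 20 detected microglia and macrophage genes 14 were lower and 0 higher; Cx3cr1, Tyrobp and Mrc1 were not well above background in SAG RAX-negative cells (at least 54.7-fold, 52.7-fold and 37.6-fold lower), and Aif1 was 29.0-fold lower. Of 15 pericyte and smooth muscle genes 9 were lower, with Rgs5 at least 32.1-fold, and 2 higher, Vtn (3.62-fold) and Ndufa4l2 (4.06-fold). Of 28 detected genes of mesenchyme, meninges and neural crest 16 were lower and 1 higher. Col1a1 was at 0.30 in SAG RAX-negative cells, -3.85 in SAG RAX-positive cells and 3.75 in diencephalon/hypothalamus, and Col3a1 at 2.84, -3.88 and 4.04, so collagen genes were higher in the RAX-negative than the RAX-positive cells of these cultures. The summed signal did not follow the counts for every list. In SAG RAX-negative cells and diencephalon/hypothalamus it was 67.6 and 61.8 for endothelium and 26.2 and 24.5 for pericytes and smooth muscle. For microglia and macrophages it was 11.3 and 20.4, and for mesenchyme, meninges and neural crest 68.3 and 128. The part of these cell types in the lower calls of other lists was not tested.

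Kdr, the receptor for vascular endothelial growth factor on endothelium, depends on its probe. The probe used had a level of 1.03 in SAG RAX-negative cells and 0.83 in diencephalon/hypothalamus, and the other had -3.97 and 0.95, a difference of -4.92. Both lie on the - strand of mm9 within chr5:76329309-76330454 and are shown as the case where the choice of probe changes the call of a defining marker.
Kdr probe, difference 0.19: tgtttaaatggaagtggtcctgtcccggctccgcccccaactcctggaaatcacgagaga
Kdr probe, difference -4.92: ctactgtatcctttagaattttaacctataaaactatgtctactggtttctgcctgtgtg

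Among the 15 genes with the largest lower values outside the globins were Alas2, of haem synthesis in red cells (at least 256-fold), Pf4, of platelets (at least 132-fold), Icam2 and Cd93, of endothelium and blood cells (at least 116-fold and 112-fold), and Pitx1, a factor of the oral ectoderm and the pituitary primordium. Pitx1 was at -4.70 in SAG RAX-negative cells and 2.69 in diencephalon/hypothalamus, 168-fold lower, -6.62 in cortex and 0.68 in eye. After their values had been seen, Lhx3, of the pituitary primordium, and Cga, the alpha subunit of pituitary hormones, were looked up. Lhx3 was 38.9-fold lower, at -3.31 in SAG RAX-negative cells and 1.97 in diencephalon/hypothalamus, and Cga at least 73.7-fold lower on the probe used, while its other probe differed by 0.54. In eye Lhx3 was at -2.49, and Cga was at 1.31 on the probe used, against 0.58 in diencephalon/hypothalamus. High Pitx1 and Cga levels were thus not particular to this tissue. Of 15 surface ectoderm and epithelium genes 7 were lower and 3 were higher. Krt5 was at -4.78 in SAG RAX-negative cells and 1.94 in diencephalon/hypothalamus (106-fold lower), though its other probe differed by -2.51.

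**Figure D3:**
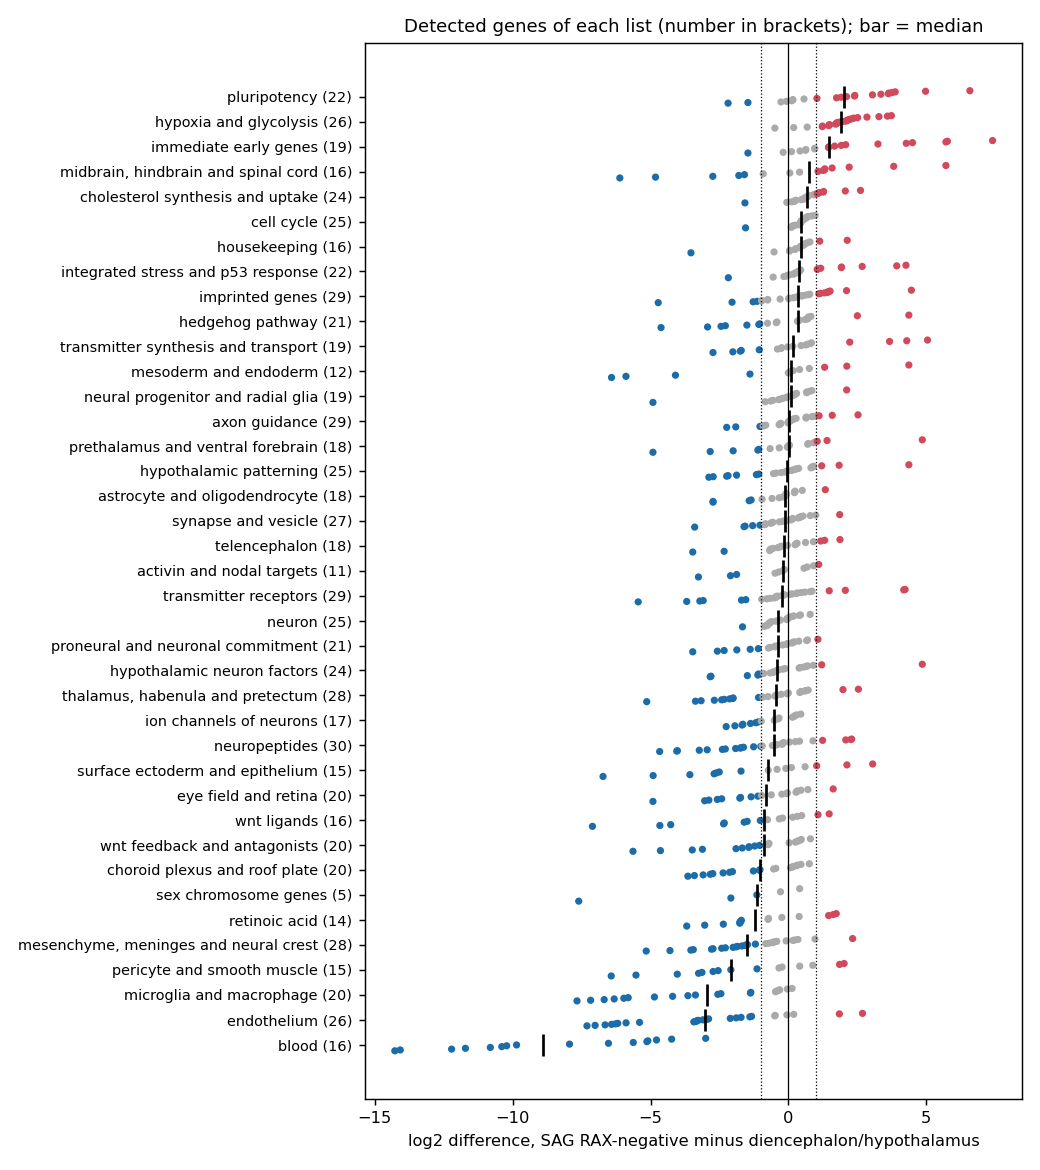
Log2 difference, SAG RAX-negative minus diencephalon/hypothalamus, of every detected gene of the 39 lists, 1 row a list ordered by its median (bar), with genes higher in red, lower in blue and within a difference of 1 in grey. Blood, endothelium and microglia lie at the bottom with medians of -8.90, -3.03 and -2.97, and pluripotency, hypoxia and glycolysis, and immediate early genes at the top with 2.01, 1.91 and 1.47.

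Glycolysis and hypoxia genes were higher as a group. Of 26 genes 23 were higher and 0 lower, with a median of 1.91. Pdk1, which diverts pyruvate from mitochondria, was at 2.76 in SAG RAX-negative cells and -0.97 in diencephalon/hypothalamus, 13.3-fold higher. Bnip3, a mitophagy receptor, was at 6.31 and 2.72 in that order of groups (12.0-fold). Vegfa was 5.03-fold higher, the glucose transporter Slc2a3 7.20-fold, hexokinase Hk2 5.70-fold, Pgk1 4.39-fold and Ldha 2.35-fold. Gapdh (0.68), Hk1 (0.19) and Car9 (-0.49) were within a log2 difference of 1. The 5 cultures all stood above the 3 tissues in the summed signal of the list, 1409 in SAG RAX-negative cells and up to 2747 in the Wi control, against 513 in diencephalon/hypothalamus and 767 and 893 in eye and cortex. The same count, 23 of 26 higher, was found for SAG RAX-positive cells against the same tissue array. Culture and tissue origin cannot be told apart here.

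The core letters bound by hypoxia-inducible factors, ACGTG or GCGTG, were searched on both strands of the window from 250 bases before to 50 after each gene's start, from RefSeq on GRCm38.p6. They were found at 24 of the 24 list genes with an entry (Ndrg1 and Slc2a3 had none), where a gene with several starts counted if any of them held a match, against 46.7% of all 27025 genes, 60.4% of the 14164 detected genes with an entry and 8 of 12 housekeeping genes. The housekeeping list also holds Pgk1, so it is not separate from the hypoxia and glycolysis list. Counted by start, 29 of 34 held a match, against 43.8% of all starts, and 5 genes had a start with none (Pdk1, Vegfa, Hk1, Aldoa and Pkm). Such short matches are a description and not sites of binding. The windows of Pdk1 (the 1 of its 2 starts with matches, chr2:71872974-71873273, + strand) and Bnip3 (chr7:138909457-138909756, - strand), the genes with the largest differences of the list, are shown with the matched letters of either strand in capitals; in Bnip3 the run CACGTG holds 1 match on each strand.
Pdk1: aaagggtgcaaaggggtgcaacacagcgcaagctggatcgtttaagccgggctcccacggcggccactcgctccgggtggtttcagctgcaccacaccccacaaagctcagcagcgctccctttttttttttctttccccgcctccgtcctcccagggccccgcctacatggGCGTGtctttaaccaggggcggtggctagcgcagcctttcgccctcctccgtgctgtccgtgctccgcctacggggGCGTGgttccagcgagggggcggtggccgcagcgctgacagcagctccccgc
Bnip3: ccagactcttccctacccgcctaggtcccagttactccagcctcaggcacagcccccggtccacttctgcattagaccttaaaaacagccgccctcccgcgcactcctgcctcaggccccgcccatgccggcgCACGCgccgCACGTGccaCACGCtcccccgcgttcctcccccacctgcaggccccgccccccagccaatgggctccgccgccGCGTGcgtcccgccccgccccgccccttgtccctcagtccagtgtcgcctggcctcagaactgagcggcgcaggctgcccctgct

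Immediate early genes were higher. Of 19 detected genes 11 were higher and 1, Klf2, was lower, with a median of 1.47. Fos, a transcription factor gene induced within minutes of stimulation, was at 2.25 in SAG RAX-negative cells and -5.15 in diencephalon/hypothalamus, 169-fold higher. Egr1 was at 3.92 and -1.84 in that order of groups (54.4-fold), Egr2 52.5-fold higher and Fosb 19.4-fold. Jun was 3.20-fold higher and Dusp1, at 2.19 and 1.24, lay within a log2 difference of 1. Fos was between 2.09 and 4.38 on the arrays of the 4 sorted populations and between -5.15 and -4.10 in the 3 tissues. It was at 0.87 in the Wi control, for which no sort is named and whose array lay on another slide. The cells were detached with trypsin and sorted, and the tissues were dissected, so handling and group cannot be told apart. The letters TGACG, the core of the cyclic AMP response element, occurred on either strand at 13 of 17 list genes with an entry, against 23.0% of all genes, 30.7% of detected genes and 8 of 12 housekeeping genes, a share near that of the list. The Fos window (chr12:85473640-85473939, + strand), shown as the largest difference of the list, holds 2.
Fos: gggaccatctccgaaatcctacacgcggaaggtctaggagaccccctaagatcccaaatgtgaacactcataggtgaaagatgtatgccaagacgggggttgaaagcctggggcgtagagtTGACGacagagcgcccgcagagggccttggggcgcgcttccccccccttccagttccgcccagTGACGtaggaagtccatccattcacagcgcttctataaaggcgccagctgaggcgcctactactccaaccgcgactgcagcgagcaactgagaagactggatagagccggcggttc

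Some stress and sterol genes were higher. Of 22 genes of the integrated stress and p53 responses 8 were higher and 1 lower. Cdkn1a, a cell cycle inhibitor under p53, was at 2.06 in SAG RAX-negative cells and -2.20 in diencephalon/hypothalamus (19.2-fold higher), Ddit4 was 15.2-fold higher, Ccng1 6.39-fold and Bbc3 3.78-fold, while Mdm2, also a p53 target, differed by 0.29 and the stress factor Ddit3 by 0.05. Cdkn2a, another cell cycle inhibitor and among the 15 genes with the largest higher values, was at -0.75 in SAG RAX-negative cells and not well above background in diencephalon/hypothalamus (at least 105-fold); it was between -1.66 and -0.48 on all 5 culture arrays. Of 24 cholesterol genes 7 were higher and 1 lower, with a median of 0.69. Insig1, which restrains sterol synthesis, was 2.42-fold higher, and the synthesis enzymes Hmgcs1 and Sqle differed by 0.70 and 0.57. Housekeeping genes gave 2 higher and 1 lower of 16, with a list median of 0.44. The lower was Hprt, and 1 of the higher was Pgk1, which is also in the hypoxia and glycolysis list. Actb was at 7.94 in SAG RAX-negative cells and 7.49 in diencephalon/hypothalamus.

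Pluripotency genes were higher but mostly at low levels. Of 22 detected genes 14 (63.6%) were higher and 2 (9.09%) lower, with a median of 2.01. Pou5f1 was at -3.83 in SAG RAX-negative cells and not well above background in diencephalon/hypothalamus (at least 12.4-fold), and it stood at 3.86 in activin RAX-negative cells. Zfp42 was at -1.01 in SAG RAX-negative cells and -5.99 in diencephalon/hypothalamus (31.4-fold), Dppa5a at 1.39 and -2.24 (12.3-fold) and Lin28a at 1.06 and -1.99 (8.28-fold). Zfp42 and Dppa5a were at -5.77 and -2.60 in SAG RAX-positive cells. Nanog differed by -0.27 on the probe used and by 3.36 on its other detected probe. Esrrb was higher on the probe used (5.26-fold) and lower on its other probe. Of 29 imprinted genes 9 were higher and 4 lower, a balance that turned to 7 and 8 under quantile normalization and in the authors' deposited table. Ascl2, of trophoblast, was 22.0-fold higher and Grb10, a growth inhibitor, 26.4-fold lower.

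The 15 genes with the largest higher values, Riken, Gm and LOC names left out, included genes of the placenta and reproductive homeobox genes, besides Fos and Cdkn2a. Rhox9 and Rhox6, reproductive homeobox genes of the X chromosome, were at 2.42 and 1.39 in SAG RAX-negative cells and not well above background in diencephalon/hypothalamus, at least 943-fold and 463-fold higher. Prl2a1 and Prl2b1, prolactin relatives of the placenta, were at least 324-fold and 87.0-fold higher, Tpbpb, a trophoblast gene, at least 131-fold, and Serpinb9e, Serpinb9f and Serpinb9g at least 297-fold, 295-fold and 184-fold. Sct, the secretin precursor, was at 4.22 in SAG RAX-negative cells and -2.73 in diencephalon/hypothalamus (124-fold), and Fthl17a, a ferritin-like gene of the X chromosome, at 1.67 and -5.50 (144-fold). Sprr2e was well above background on the SAG RAX-negative array alone among the 8 (at least 89.2-fold higher than in diencephalon/hypothalamus). Families were counted after these values had been seen: of 11 detected placental prolactin genes 8 were higher and 0 lower, of 18 detected Rhox genes 7 and 0, and of 6 detected Serpinb9 genes 5 and 0, where 13.5% of all detected genes were higher and 10.0% lower. Well above background in SAG RAX-negative cells and in the tissue were 11 and 6 prolactin, 17 and 15 Rhox, and 6 and 1 Serpinb9 genes. A gene well above background in SAG RAX-negative cells alone cannot be called lower by the rule. The families also came from the largest differences, so these counts describe them and are no separate support. Members of each family are similar in sequence and their probes may share signal, so single members are uncertain. Rhox9 and Prl2a1 were also high in the RAX-negative cells after activin, at 2.85 and 0.19, and lower in SAG RAX-positive cells, at -2.27 and -3.50. The Rhox6 probe is shown as that of a gene read from a single probe with 1 of the largest differences; it lies at chrX:35182945-35183004, + strand, mm9.
Rhox6 probe: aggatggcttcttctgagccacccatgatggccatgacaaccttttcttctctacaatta

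**Figure D4:**
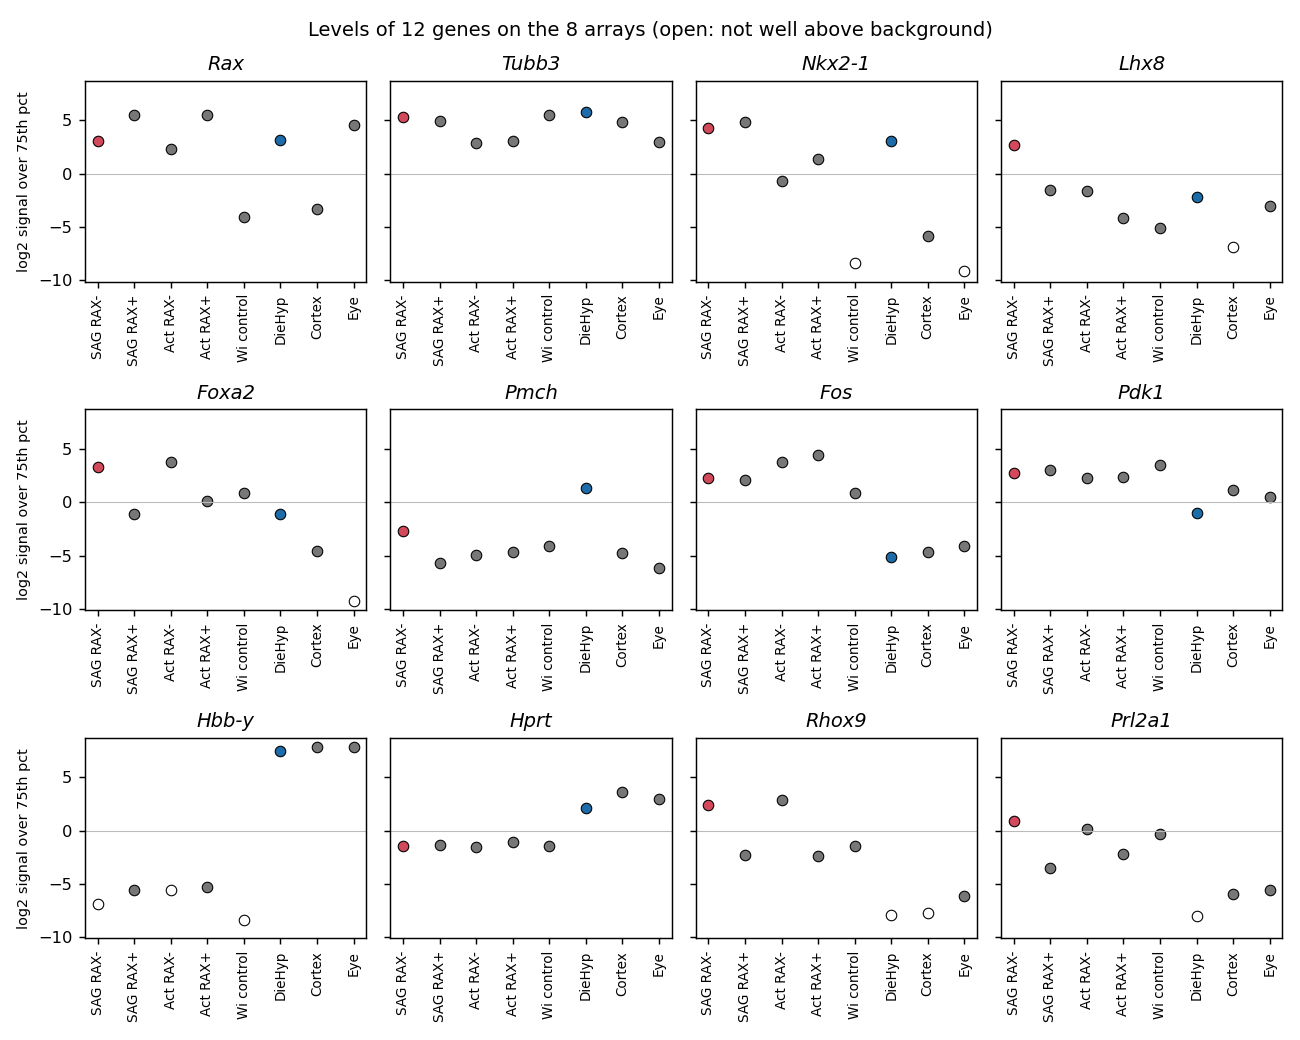
Levels of 12 genes on the 8 arrays as log2 signal over the array's 75th percentile (Act, activin; DieHyp, diencephalon/hypothalamus), with SAG RAX-negative in red, diencephalon/hypothalamus in blue and open symbols where the spot was not well above background. Rax and Tubb3 are alike in the red and blue arrays, Lhx8 is high on the SAG RAX-negative array and Pmch on the tissue array, and Fos, Pdk1, Hbb-y and Hprt part the 5 cultures from the 3 tissues.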

How the data were processed

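Each of the 8 groups gave 1 single-colour Agilent array from 50 ng of RNA, pooled from 3 sets of experiments per the labels' protocols. The deposited scanner tables hold a processed intensity per spot, from which the authors had removed background and spatial trend with Agilent Feature Extraction 10.7.3.1, per the file headers; the submitters' processing notes name version 9.1 and limma. Probe positions are on mm9, per the file headers. The authors' deposited value table holds log2 values normalized between arrays (column medians 6.37 for SAG RAX-negative and 6.36 for diencephalon/hypothalamus); it is neither centred nor a ratio, its scale is log2, and the sources used here do not give its normalization steps. It served as an alternative.

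Control spots and spots called outliers were left out, repeated spots were averaged, and signals were divided by the 75th percentile of the 59305 non-control spots before log2. Of 55681 probes 262 had outlier spots alone; 28026 were named through their RefSeq accession and the rest by the file's name, giving 34498 genes, 11284 with several probes. With 1 array a group no test was possible, and the rule of size replaced it; the number of arrays limits precision. The 2 comparisons given side by side, with SAG RAX-negative and with SAG RAX-positive cells, share the diencephalon/hypothalamus array. The 39 gene lists and the genes compared were chosen with earlier results of these data known. Genes were named as the check of the gate (Rax), as defining or most different members of the lists, and as the 15 largest differences each way without Riken, Gm and LOC names; others are said to be chosen after their values were seen. Some list members are counted but not reported by name here. The alternatives were other scalings, a normexp background with offset 50, the authors' table, stricter filters, the median over probes, centring and, added after the data were seen, a floor for dim spots. Python 3.11.15, pandas 2.3.3, numpy 2.4.6, R 4.3.3 and limma 3.58.1 (normexp and quantile normalization) were used.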

Additional observations from a re-analysis of the deposited data

How the results depend on the processing

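With 1 pooled array a group, no value here measures the spread between cultures or embryos. No paired analysis was possible because each group has 1 array. The number of genes lower was 830 with normexp, 1452 where both arrays had to be well above background and 1885 with dim spots set to the floor, against 2659 as reported. The number higher was 1807 in the authors' table, against 3579. At a log2 difference of at least 2, 1582 genes were higher and 966 lower. The neuron median (-0.36) was -0.71 after quantile normalization and -0.70 in the authors' table, and the neuropeptide median (-0.52) was -0.78 after quantile normalization and -0.15 with normexp. The endothelium median (-3.03) was -1.79 with normexp, -2.51 in the authors' table, -1.89 with both arrays well above background and -2.73 over the median of probes. The microglia median (-2.97) was -1.30, -2.38, -0.47 and -3.46 under the same 4 alternatives and -2.58 with dim spots set to the floor, and the blood median (-8.90) was -5.62 with normexp and -7.97 with that floor, an alternative chosen after seeing the data. The pluripotency median (2.01) was 1.69 after quantile normalization, 1.67 with normexp, 1.31 in the authors' table and 1.75 with both arrays well above background. Requiring both arrays well above background removes the genes that were near background on 1 array, by construction; for the other settings the cause was not tested. Over the median of probes, 4 differences changed sign: Gas1 (0.16), Prdm12 (0.18), Hcrt (0.53) and Nsg2 (1.02); Hcrt was also 0.45 with normexp. Of 284 listed or named genes with several probes 6 had probes called in opposite directions. Axin2 (-0.40), Cdon (-0.63), Lhx1 (-0.98), Lhx9 (-0.24), Nkd1 (-0.11), Scn2a (-0.94) and Dll3 (0.75) had another probe within a log2 difference of 1, and Gapdh and Hmgcs1 (1.01) another probe past it. Levels near background limit every fold written "at least".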

Other observations

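Values were seen that belong to no list of the report and were chosen after they had been seen. Dnah10, which encodes a dynein heavy chain of cilia, was at 0.18 in SAG RAX-negative cells and -5.77 in diencephalon/hypothalamus (62.0-fold higher). It was between 0.18 and 0.66 on the 4 arrays of sorted K/l-EB5 cells and between -5.77 and -4.88 on the other 4, the Wi control from the other ES line included. The Wi control array lay on another slide, so line, slide, agent and sort cannot be told apart between it and the sorted cells. Signal well above background was also read for 223 of 1359 genes of olfactory and vomeronasal receptors on the SAG RAX-negative array and for 272 on the diencephalon/hypothalamus array. Of the 318 detected ones 118 (37.1%) were higher in SAG RAX-negative cells and 36 (11.3%) lower, against 13.5% and 10.0% of all detected genes. Their median difference was 0.22, and fewer of them were well above background in SAG RAX-negative cells than in the tissue. The lowest level well above background also differed, at -5.62 in SAG RAX-negative cells and -7.47 in the tissue. The part of background signal in the higher calls was not tested. Of 16 detected Hox genes 6 (37.5%) were higher and 6 lower.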
